A study of Homo sapiens with 12 samples.

Results

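The genes described here are 41 genes of the lysosome, of the proton pump that acidifies it and of autophagy, out of 36459 gene symbols in the deposited table. They were taken as a list of symbols by a rule that uses no measured value, though the list was drawn up with earlier results of these data known. They fall into 11 soluble lysosomal proteins, 5 lysosomal membrane proteins, 11 subunits of the vacuolar proton pump (V-ATPase), the 2 transcription factors TFEB and TFE3, and 12 autophagy genes. All 41 were found, and all 41 passed the filter on low counts that left 14209 genes for testing.

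The libraries come from HEK293, an immortalised human embryonic kidney cell line. Poly-A RNA was sequenced in 12 libraries, in 4 groups of 3: oleic acid with ferric ammonium citrate (FAC, an iron salt), FAC alone, oleic acid alone, and vehicle. The series sets out to learn how oleic acid, a monounsaturated fatty acid, acts on cells in which FAC is used to bring on ferroptosis, a form of death driven by iron and lipid peroxidation. The sources used here give neither dose nor duration for either agent. Without a group given ammonium or citrate but no iron, effects of the iron cannot be told apart from those of its counter-ions.

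The lysosome is the acidic organelle in which hydrolases break down proteins, lipids and sugars. The V-ATPase pumps protons into it with a membrane-bound V0 sector and an ATP-splitting V1 sector, and autophagy wraps cytoplasm in a double membrane and delivers it there. Ferritin, the iron store of the cell, reaches the lysosome by autophagy through its receptor NCOA4, and the acidic interior releases the iron. TFEB and TFE3 are basic helix-loop-helix factors that bind a short palindrome, the CLEAR element, in the promoters of many lysosomal genes.

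In the fit with a mean per group, few of these genes differed with FAC, and by small steps. With the FAC effect averaged over cells with and without oleic acid, 2 of the 41 genes passed the test, both higher with FAC and both autophagy genes: GABARAPL1, one of the ubiquitin-like proteins attached to the autophagosome membrane, by 1.32-fold, and UVRAG, a partner of the Beclin 1 lipid kinase complex, by 1.22-fold. These are changes in counts. Per length of transcript, the mean UVRAG level was not higher with FAC, whether oleic acid was given or not. Passing means a Benjamini-Hochberg adjusted p under 0.05 over all 14209 genes in edgeR's quasi-likelihood test. Of all genes tested, 8.76% passed in this comparison, 3.27% up and 5.48% down, so the share of members, 2 of 41 (4.88%), was below the background. The order of these 2 shares was not stable between fits, and whether they differ was not tested. In DESeq2, 5 of 41 members (12.2%) passed against 12.5% of all genes to which it gave an adjusted p. With the replicate number as a block, 10 of 41 members (24.4%) passed against 15.6% of all genes, with a transcript length trend removed 7 (17.1%) against 15.9%, and with both 15 (36.6%) against 26.2%. SCARB2, ATP6V1E1, ATP6V1H and SQSTM1, higher with FAC, and ULK1, lower, passed in each of these 3 fits. In the fit with a mean per group alone, the count was 0 without the first oleic acid, the second vehicle or the third FAC library (5.11% to 5.81% of all genes). It was 6 without the third oleic acid library (12.5%). The count was 1 without the first vehicle, the first FAC, the second oleic acid, the second FAC or the second oleic acid + FAC library (5.90% to 7.22%). It was also 1 without replicate 3 of oleic acid + FAC (8.37%), and 2 without either of the remaining libraries (5.30% and 7.66%). In bulk RNA, less message per cell and fewer cells with the message cannot be told apart. In the fit of all 12 libraries with a mean per group, none of the hydrolases, membrane proteins or pump subunits passed. For oleic acid none of the 41 genes, and no other gene, passed this test.

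**Figure D1:**
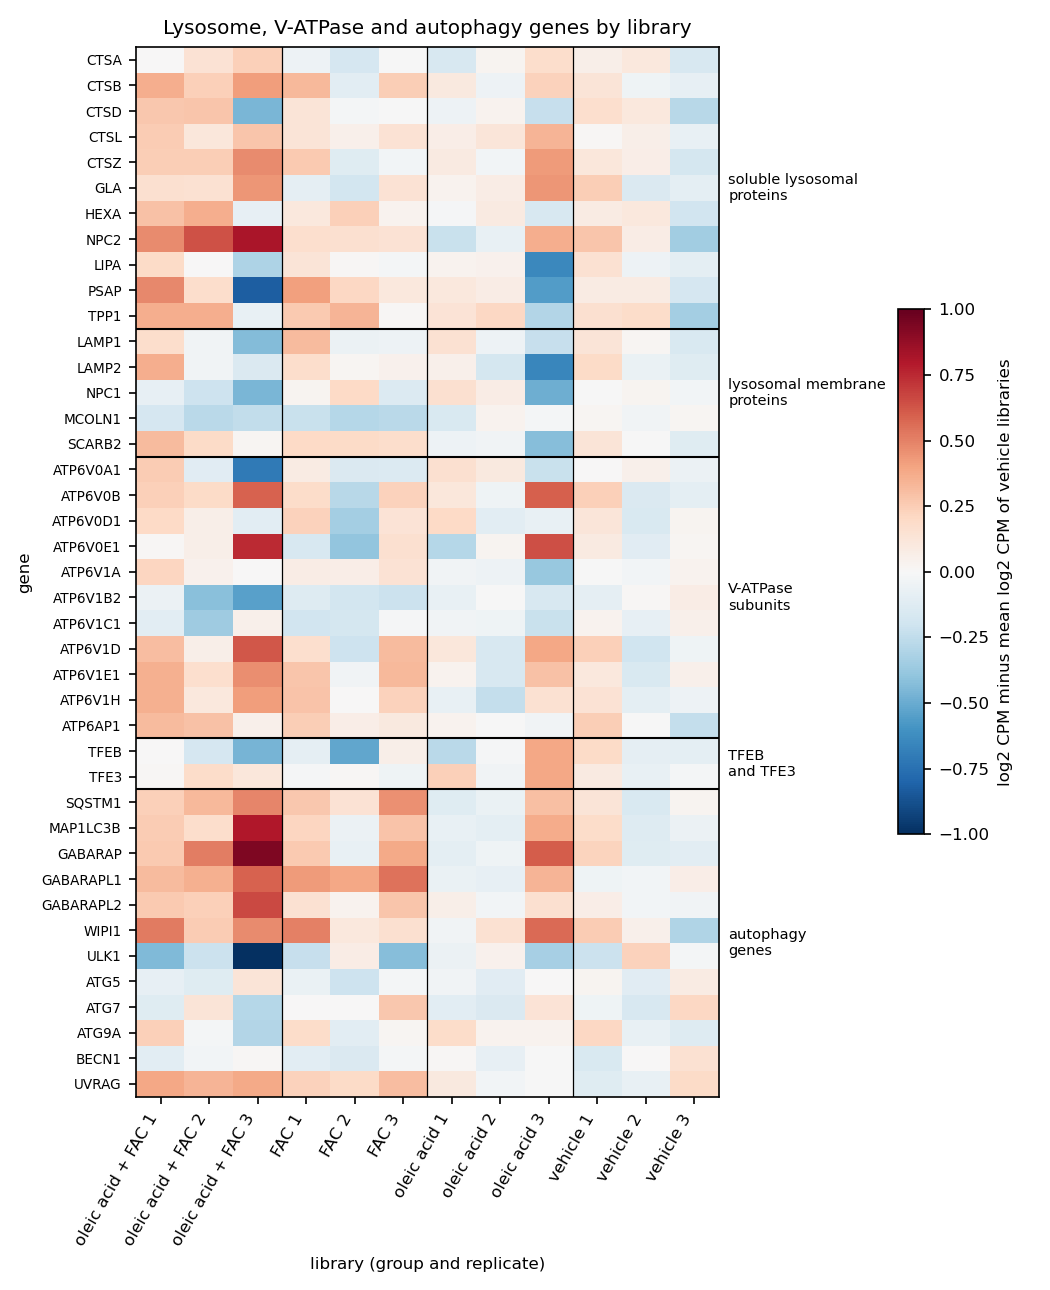
Level of each of the 41 genes (rows, by list) in each of the 12 libraries (columns), as log2 CPM minus the mean log2 CPM of the 3 vehicle libraries, with red for higher and blue for lower. GABARAPL1 and UVRAG are red in the 6 libraries with FAC, MCOLN1 is blue in them, and replicate 3 of both oleic acid groups carries the strongest colours of both kinds.

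Library totals ran from 14098216 to 18717397 counts, and levels are given as CPM, counts scaled to a common library size by trimmed mean of M values (TMM). Mitochondrial transcripts took 3.33% to 12.1% of the counts. The markers of HEK293 summed to 728 to 1749 CPM over the 12 libraries. Most of that sum was VIM (583 to 1427 CPM), and PAX2 stood at 4.29 to 7.15 CPM. The 5 markers of macrophages, cells rich in lysosomes, summed to 0.289 to 1.55 CPM. Those of fibroblasts summed to 9.71 to 18.9 CPM, nearly all COL1A1. Those of mature kidney tubule summed to 2.99 to 12.2 CPM, nearly all LRP2, with UMOD and AQP2 at 0. Those of blood cells summed to 0 to 1.63 CPM with HBB at 0. The labels number the replicates but do not call them separate cultures, so the p-values measure the spread between these libraries only.

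Replicate 3 of oleic acid + FAC and replicate 3 of oleic acid stood apart from the others in their length profile. The SD over the 41 genes of the deviation from the group mean was 0.27 (log2) with both agents and 0.26 with oleic acid alone, against 0.087 to 0.180 in the other 10 libraries. Across all genes with a length, that deviation had a Pearson correlation with transcript length of -0.39 and -0.51 in this pair, against -0.21 to 0.35 in the others, a description over genes that share a library. Across the 41 genes it was -0.57 and -0.69, and there the others, from -0.54 to 0.66, were not set apart. The short messages of GABARAP, ATP6V0E1 and NPC2 were high in this pair, and that of ULK1, the longest of the members, was low. Not all members followed length. PSAP, at 2189 bases near the member median of 2030, was low, and MAP1LC3B, at 2662 bases, was high. The sub-lists differ in length, with a median of 3267 bases for the membrane proteins and 1694 bases for the pump subunits, so a length trend reaches them unequally. With the pair left out, 7 members passed in the averaged FAC comparison (GABARAPL1, UVRAG, SQSTM1, GABARAP, NPC2, SCARB2 and ATP6V1H, all higher with FAC), a share of 17.1%, while 14.9% of all genes passed.

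**Figure D2:**
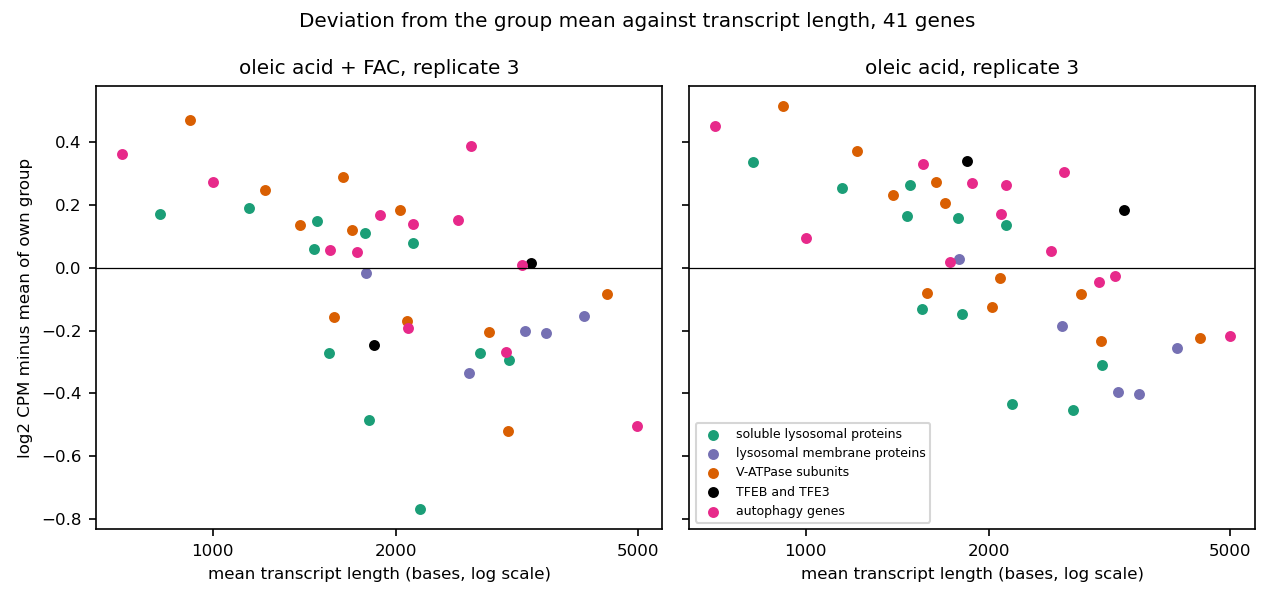
Deviation of each of the 41 genes from the mean of its own group (vertical axis, log2 CPM) against its mean transcript length in bases (horizontal log axis), in replicate 3 of oleic acid + FAC (left) and replicate 3 of oleic acid (right), coloured by list. Short transcripts lie mostly above the zero line and long ones mostly below it in both libraries, with exceptions such as HEXA (1552 bases), which lies below it in both.

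Promoters are shown for members with a CLEAR-type palindrome because the lysosomal part of the list is the textbook target of TFEB and TFE3. RefSeq promoters on GRCh38.p14, from 250 bases before to 50 bases after the annotated start, matched 31 of the 41 members. The searched core was CACGTG, which reads the same on both strands, followed by the longer forms TCACGTG (or its reverse complement), TCACGTGA and the 10-base CLEAR form, which is TCACGTGA with G before it and C after it. Each longer form contains the shorter ones, and both strands were read. The core was present in 6 of the 31 member promoters (19.4%) and in 8.77% of 27305 genes with a promoter. All 6 also held TCACGTG, against 4.49% of genes, 4 held TCACGTGA, against 1.18%, and MCOLN1 alone held the 10-base form, against 0.421%. These backgrounds include genes not expressed here, whereas all members were tested. Of 10646 tested genes with a promoter, 1349 held the core, 764 TCACGTG, 235 TCACGTGA and 92 the 10-base form. Each is a larger share than among all genes. A match describes letters in this window and does not show that a factor binds there. The first set below is LAMP1, with 6 copies, from 210 bases before to 10 bases after its start at chr13:113297029-113297248 on the plus strand of GRCh38.p14, with each CACGTG in capitals:
LAMP1: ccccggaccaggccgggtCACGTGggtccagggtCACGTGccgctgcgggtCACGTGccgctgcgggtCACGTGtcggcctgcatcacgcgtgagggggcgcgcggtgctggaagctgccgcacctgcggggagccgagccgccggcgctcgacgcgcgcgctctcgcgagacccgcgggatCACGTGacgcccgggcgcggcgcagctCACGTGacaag

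The other 5 promoters with the core are shown from 60 bases before to 10 bases after the start, again with CACGTG in capitals. They are MCOLN1 at chr19:7522564-7522633 (plus strand), CTSA at chr20:45891275-45891344 (plus), CTSD at chr11:1763918-1763987 (minus), ATP6V0B at chr1:43974900-43974969 (plus) and ATP6V0D1 at chr16:67481148-67481217 (minus), each written 5′ to 3′ on the strand of its gene. GABARAPL1 at chr12:10212817-10212886 (plus), the member with the lowest adjusted p, follows as a promoter with no CACGTG in its window:
MCOLN1: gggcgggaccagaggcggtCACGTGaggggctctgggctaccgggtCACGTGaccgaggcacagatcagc
CTSA: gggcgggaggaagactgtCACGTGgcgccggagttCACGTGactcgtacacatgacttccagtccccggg
CTSD: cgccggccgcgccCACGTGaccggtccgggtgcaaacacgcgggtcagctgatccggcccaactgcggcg
ATP6V0B: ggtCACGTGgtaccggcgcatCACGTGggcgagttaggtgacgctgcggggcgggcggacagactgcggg
ATP6V0D1: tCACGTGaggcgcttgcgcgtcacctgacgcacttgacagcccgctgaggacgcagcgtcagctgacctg
GABARAPL1: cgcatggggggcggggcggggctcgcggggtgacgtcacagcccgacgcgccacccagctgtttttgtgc

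In edgeR with a mean per group, 0 of the 6 members with a CACGTG promoter passed in the averaged FAC comparison, 1 (MCOLN1) had an unadjusted p under 0.05, and DESeq2 and limma-voom called 0. Their log2 fold changes with FAC, averaged over oleic acid, were -0.22 for MCOLN1, 0.08 for CTSD and for ATP6V0B, 0.03 for ATP6V0D1, and 0.02 for LAMP1 and for CTSA. Over all tested genes with a promoter the same comparison called 9.12% of 10646 genes, and it called 10.7% of the 1349 with CACGTG and 6 of the 92 with the 10-base form (6.52%). With the replicate number as a block MCOLN1 passed (edgeR adjusted p = 0.0494), while 15.6% of all genes passed. With the block and removal of the length trend together MCOLN1 passed too (edgeR adjusted p = 0.0378), while 26.2% of all genes passed.

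Of the 2 transcription factors, TFEB, the better known lysosomal regulator, was scarce in these cells, with 4.01, 3.58 and 2.91 CPM in oleic acid + FAC, 3.77, 2.79 and 4.18 CPM in FAC alone, 3.33, 3.97 and 5.23 CPM in oleic acid, and 4.57, 3.76 and 3.74 CPM in vehicle. TFE3, its relative, stood at 38.2, 43.0 and 41.1 CPM in oleic acid + FAC, 37.5, 38.3 and 36.8 CPM in FAC alone, 44.8, 37.1 and 49.5 CPM in oleic acid, and 40.4, 36.1 and 37.4 CPM in vehicle. Groups overlapped for both genes. Per length of transcript, TFE3 was also the more abundant, at a mean of 19.5 TPM (counts per length of transcript, scaled to a fixed total, computed from the deposited transcript counts) against 3.39 TPM for TFEB. Neither passed with FAC averaged over oleic acid (TFEB log2 fold change -0.21, 95% interval -0.58 to 0.16, edgeR adjusted p = 0.501; TFE3 -0.06, -0.24 to 0.12, adjusted p = 0.721). Both factors are controlled largely by where in the cell the protein sits, which message levels do not show.

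The soluble lysosomal proteins are hydrolases and their helpers, and they were abundant. Per length, PSAP, the precursor of the saposins that help degrade sphingolipids, led the list at a mean of 209 TPM over the 12 libraries, followed by the aspartic protease CTSD at 118 TPM. LIPA, the acid lipase that frees cholesterol and fatty acids from lipoproteins, was lowest at 35.1 TPM. All 11 had a log2 fold change above 0 with FAC averaged over oleic acid, from 0.01 to 0.37 with a median of 0.10. The median over all 14209 genes was 0.0045. None of the 11 passed in the fit with a mean per group. TPP1 passed with the replicate block (15.6% of all genes passed) and NPC2 in DESeq2 (12.5%). CTSB, NPC2 and TPP1 passed with the block and removal of the length trend together (26.2%).

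NPC2, the soluble carrier that hands cholesterol to NPC1, had the largest fold change of these 11. It stood at 37.6, 42.2 and 47.7 CPM in oleic acid + FAC, 30.5, 30.4 and 30.0 CPM in FAC alone, 23.3, 25.7 and 34.8 CPM in oleic acid, and 32.8, 28.5 and 21.3 CPM in vehicle. All 3 oleic acid + FAC libraries lay above every other library, while FAC alone lay within the range of vehicle. The log2 fold change of oleic acid + FAC against oleic acid was 0.61 ± 0.18 (SE, edgeR adjusted p = 0.0968), that of FAC against vehicle did not pass either, and averaged over oleic acid it was 0.37 ± 0.12 (adjusted p = 0.0825). The interaction, which asks whether FAC acted differently with oleic acid, did not pass for NPC2 or any other member.

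Cathepsin B (CTSB), a cysteine protease, had 119, 109 and 123 CPM in oleic acid + FAC, 116, 85.9 and 109 CPM in FAC alone, 99.0, 89.2 and 108 CPM in oleic acid, and 101, 89.4 and 87.4 CPM in vehicle. The 3 oleic acid + FAC libraries were above those of oleic acid and of vehicle, while the second FAC library was the lowest of all 12. Averaged over oleic acid, the FAC effect was 0.20 ± 0.09 on the log2 scale (SE, edgeR adjusted p = 0.195).

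CTSD had 155, 155 and 93.5 CPM in oleic acid + FAC, 139.8, 127 and 128 CPM in FAC alone, 124, 131 and 109 CPM in oleic acid, and 144, 138 and 106 CPM in vehicle. Its lowest value was replicate 3 of oleic acid + FAC, and the groups overlapped. CTSL, a cysteine protease of the same compartment, had 48.1, 43.6 and 48.7 CPM in oleic acid + FAC, 43.9, 41.6 and 44.5 CPM in FAC alone, 42.0, 43.7 and 51.0 CPM in oleic acid, and 40.5, 41.9 and 38.3 CPM in vehicle. Oleic acid, alone and with FAC, lay above vehicle in every library for CTSL, with a log2 fold change of 0.18 for oleic acid against vehicle that did not pass (edgeR adjusted p = 1.000).

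LIPA had 67.8, 59.7 and 48.0 CPM in oleic acid + FAC, 65.1, 59.9 and 58.7 CPM in FAC alone, 61.1, 61.2 and 38.1 CPM in oleic acid, and 66.2, 57.4 and 55.5 CPM in vehicle. Replicate 3 of each oleic acid group was lowest. The 95% interval of its FAC effect ran from -0.19 to 0.35 on the log2 scale, that of CTSD from -0.19 to 0.36 and that of CTSL from -0.09 to 0.23. The remaining soluble proteins are the peptidases CTSA, CTSZ and TPP1, the glycosidases GLA and HEXA, and PSAP, and their FAC effects ran from 0.01 to 0.20 with adjusted p from 0.280 to 0.974.

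The membrane proteins of the lysosome showed effects of both signs. MCOLN1, the channel that releases calcium and iron from the lysosome (chr19:7522626-7534009, plus strand, GENCODE 29 on GRCh38), was the 1 member of 41 in which all 6 libraries with FAC lay on one side of all 6 without. It stood at 19.2, 17.9 and 18.2 CPM in oleic acid + FAC, 18.5, 17.7 and 17.96 CPM in FAC alone, 19.4, 22.1 and 21.4 CPM in oleic acid, and 21.9, 21.1 and 21.9 CPM in vehicle. Every library with FAC was below every library without, and the lowest library without FAC, the first of oleic acid, was close to the highest with it. Over all genes, 4.04% had all libraries with FAC below and 2.8% above. The mean was 18.3 ± 0.532 CPM with FAC and 21.3 ± 0.988 CPM without (SD, n = 6 each). The log2 fold change was -0.22 ± 0.07 (SE, edgeR adjusted p = 0.0780), short of the threshold in the fit with a mean per group. With the replicate number as a block the adjusted p was 0.0494.

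SCARB2, the receptor that carries glucocerebrosidase to the lysosome (chr4:76158733-76234536, minus strand), stood at 145, 133 and 119 CPM in oleic acid + FAC, 134, 134 and 132 CPM in FAC alone, 113, 114 and 86.9 CPM in oleic acid, and 128, 117 and 107 CPM in vehicle. FAC libraries lay above vehicle libraries and oleic acid + FAC libraries above oleic acid libraries without overlap. Such separation of 3 libraries from 3 was common. FAC lay wholly above vehicle in 1422 of 14209 genes and 5 of 41 members, and below in 1757 and 2. Oleic acid + FAC lay above oleic acid in 1115 genes and 7 members, and below in 1462 and 1. Oleic acid + FAC lay above vehicle in 1954 genes and 10 members, and below in 2059 and 2. The averaged FAC effect on SCARB2 was 0.26 ± 0.09 (log2, SE), with an edgeR adjusted p of 0.0879. With the replicate number as a block the adjusted p was 0.0219.

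LAMP1 and LAMP2 are the main glycoproteins of the lysosomal membrane. LAMP1 had 186, 160.4 and 122 CPM in oleic acid + FAC, 204, 158 and 159 CPM in FAC alone, 182, 158 and 139.9 CPM in oleic acid, and 180.1, 166 and 148 CPM in vehicle. LAMP2 had 137, 104 and 97.0 CPM in oleic acid + FAC, 121, 108 and 110.3 CPM in FAC alone, 111, 94.6 and 67.9 CPM in oleic acid, and 122, 102 and 98.1 CPM in vehicle. For both the groups overlapped and replicate 3 was the lowest of each oleic acid group. The FAC effect was 0.02 for LAMP1 (95% interval -0.23 to 0.27) and 0.19 for LAMP2 (-0.08 to 0.46) on the log2 scale.

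NPC1, the membrane transporter that takes cholesterol out of the lysosome, had 28.4, 26.2 and 21.9 CPM in oleic acid + FAC, 30.8, 34.7 and 27.5 CPM in FAC alone, 33.7, 31.8 and 21.5 CPM in oleic acid, and 30.1, 30.7 and 29.7 CPM in vehicle. All 3 oleic acid + FAC libraries were below the vehicle libraries. Its FAC effect averaged over oleic acid was -0.08 ± 0.12 (log2, SE, edgeR adjusted p = 0.751).

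**Figure D3:**
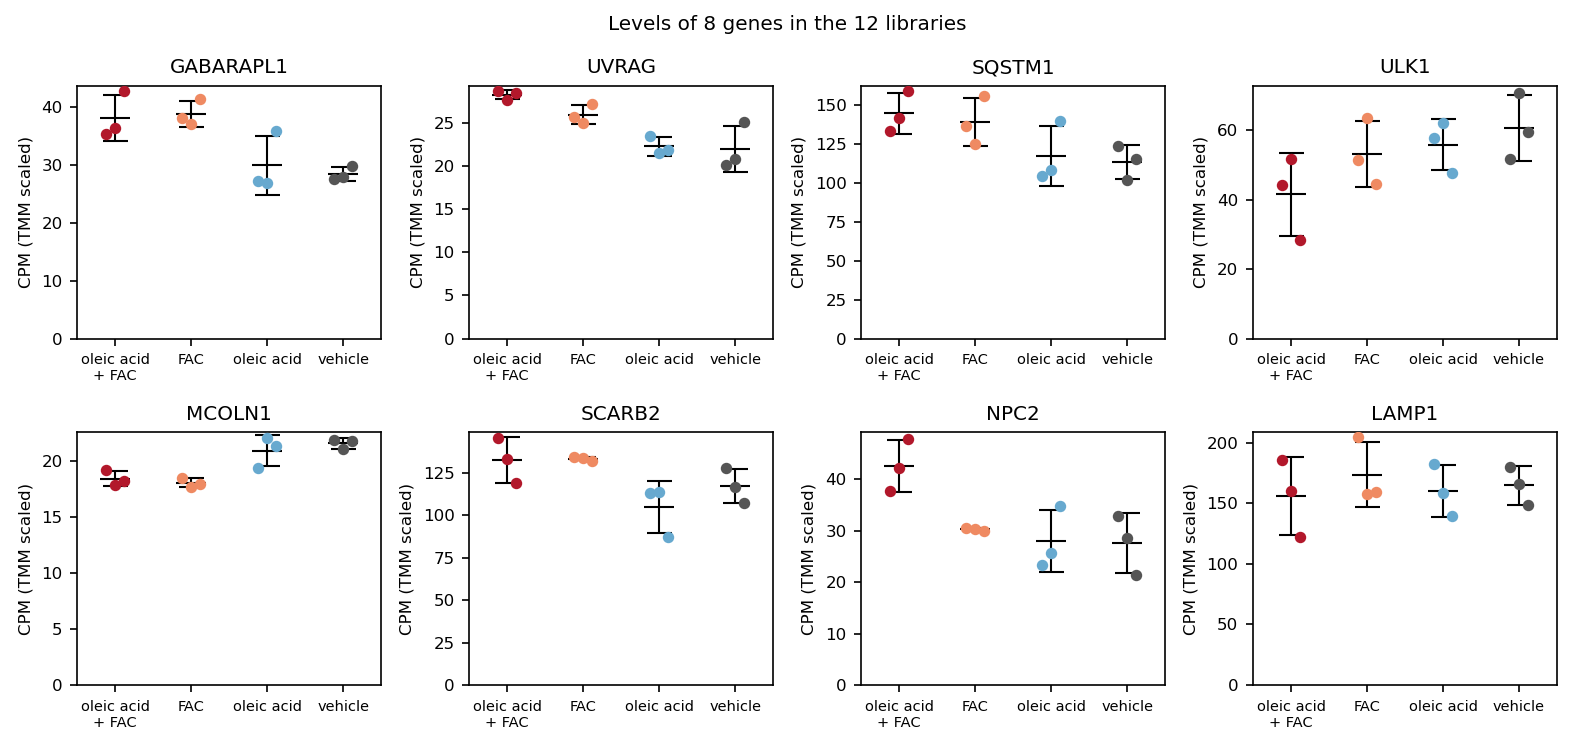
Levels of 8 members in CPM (vertical axes start at 0) in oleic acid + FAC, FAC, oleic acid and vehicle; points are libraries, bars the mean ± SD of 3. GABARAPL1 lies between 35.4 and 42.7 CPM with FAC, MCOLN1 between 17.7 and 19.2 CPM with FAC, below all libraries without FAC, and LAMP1 overlaps across groups.

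The pump subunits were abundant and mostly flat. Per length they ran from a mean of 37.6 TPM for ATP6V1H, a regulatory V1 subunit, to 146 TPM for ATP6V0E1, a small V0 subunit. With FAC averaged over oleic acid, 8 of the 11 had a positive and 3 a negative log2 fold change. The median was 0.08 and the range -0.21 to 0.26, and none passed in the fit with a mean per group. With the replicate block ATP6V1E1 and ATP6V1H passed (edgeR adjusted p = 0.0295 for ATP6V1H), while 15.6% of all genes passed. With the block and removal of the length trend together ATP6AP1 and ATP6V1A passed too, while 26.2% of all genes passed. ATP6V1H had 46.6, 39.3 and 48.6 CPM in oleic acid + FAC, 44.5, 36.6 and 42.7 CPM in FAC alone, 34.6, 30.8 and 40.5 CPM in oleic acid, and 40.3, 34.0 and 35.2 CPM in vehicle. Its groups overlapped, with the third oleic acid library and the first vehicle library within the range of FAC, and its averaged FAC effect was 0.26 ± 0.10 (log2, SE, edgeR adjusted p = 0.115).

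ATP6V1B2, a nucleotide-binding subunit of the V1 ring, had the lowest FAC effect of the pump. It had 84.9, 66.2 and 60.7 CPM in oleic acid + FAC, 80.8, 77.8 and 76.2 CPM in FAC alone, 83.6, 88.2 and 78.8 CPM in oleic acid, and 83.1, 89.1 and 92.8 CPM in vehicle. FAC libraries lay below all vehicle libraries, whereas the first oleic acid + FAC library overlapped with oleic acid. The averaged FAC effect was -0.21 ± 0.09 (log2, SE, edgeR adjusted p = 0.166).

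ATP6V1A, the catalytic subunit, had 123, 109 and 106 CPM in oleic acid + FAC, 112, 111 and 117 CPM in FAC alone, 103, 102 and 81.2 CPM in oleic acid, and 106, 104 and 108 CPM in vehicle. FAC lay above vehicle and oleic acid + FAC above oleic acid in every library, with an averaged FAC effect of 0.17 ± 0.08 (log2, SE, edgeR adjusted p = 0.224). ATP6V0D1, which joins the rotor to the V0 ring, had 66.4, 60.2 and 53.7 CPM in oleic acid + FAC, 67.6, 45.5 and 63.4 CPM in FAC alone, 66.2, 53.7 and 54.8 CPM in oleic acid, and 62.8, 51.9 and 58.9 CPM in vehicle. Its groups overlapped throughout, and the 95% interval of its FAC effect ran from -0.20 to 0.27. The other subunits are ATP6V0A1, ATP6V0B, ATP6V0E1, ATP6V1C1, ATP6V1D, ATP6V1E1 and the accessory protein ATP6AP1, and their FAC effects ran from -0.11 to 0.23 with adjusted p from 0.189 to 0.989.

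The autophagy genes held both genes that passed in the fit with a mean per group. They had the highest median FAC effect of the sub-lists, 0.23 on the log2 scale, with 8 of 12 positive. GABARAPL1 (chr12:10212458-10223130, plus strand) stood at 35.4, 36.4 and 42.7 CPM in oleic acid + FAC, 38.0, 37.1 and 41.4 CPM in FAC alone, 27.2, 26.8 and 35.9 CPM in oleic acid, and 27.6, 27.8 and 29.8 CPM in vehicle. Of the 6 libraries without FAC, only the third of oleic acid reached into the range of those with FAC. The mean was 38.5 ± 2.92 CPM with FAC and 29.2 ± 3.44 CPM without (SD, n = 6 each), a log2 fold change of 0.40 ± 0.09 (SE) and an edgeR adjusted p of 0.0174. Its adjusted p was above 0.05 without the first oleic acid library (0.0511), the second vehicle library (0.0515) or the third FAC library (0.0527).

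UVRAG (chr11:75815167-76143195, plus strand) had 28.7, 27.8 and 28.5 CPM in oleic acid + FAC, 25.7, 25.1 and 27.2 CPM in FAC alone, 23.5, 21.5 and 21.9 CPM in oleic acid, and 20.1, 20.9 and 25.1 CPM in vehicle. Oleic acid + FAC lay above all other groups, and FAC met vehicle at the third vehicle library. The log2 fold change averaged over oleic acid was 0.29 ± 0.08 (SE, edgeR adjusted p = 0.0367). The call held in 2 of the 12 fits that left out 1 library, those without the third vehicle or the third oleic acid library. In the other 10 fits the adjusted p ran from 0.0503 to 0.105, and over all 12 the log2 fold change ran from 0.26 to 0.34. Per length of transcript UVRAG was not higher with FAC. Its mean was 11.3 ± 3.20 TPM in oleic acid + FAC and 11.6 ± 2.53 TPM in oleic acid (SD). In FAC alone it was 13.1 ± 1.12 TPM, and in vehicle 14.1 ± 1.95 TPM (SD).

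SQSTM1, the receptor p62 that ties ubiquitinated cargo to the autophagosome (chr5:179806398-179838078, plus strand), had 134, 142 and 159 CPM in oleic acid + FAC, 136, 125 and 156 CPM in FAC alone, 104, 108 and 139.6 CPM in oleic acid, and 124, 102 and 115 CPM in vehicle. FAC lay above vehicle in every library, and the third oleic acid library overlapped with oleic acid + FAC. The averaged FAC effect, 0.30 ± 0.10 (log2, SE), had an edgeR adjusted p of 0.0783. SQSTM1 is also known as a target of the oxidative stress factor NRF2.

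MAP1LC3B, the lipid-conjugated LC3B that marks autophagosomes, had 85.1, 80.4 and 124 CPM in oleic acid + FAC, 83.0, 68.4 and 86.7 CPM in FAC alone, 67.6, 66.5 and 92.3 CPM in oleic acid, and 81.0, 65.3 and 68.6 CPM in vehicle. The groups overlapped, and replicate 3 was the highest of each oleic acid group (log2 FAC effect 0.25 ± 0.13, SE, edgeR adjusted p = 0.259). MAP1LC3B and GABARAPL1 have near-identical copies elsewhere in the genome, MAP1LC3B2 and GABARAPL3, and how the estimated counts were divided among them was not tested. GABARAP and GABARAPL2, relatives of GABARAPL1, had FAC effects of 0.30 ± 0.15 and 0.25 ± 0.09 (log2, SE) with edgeR adjusted p of 0.254 and 0.109.

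ULK1, the kinase that starts autophagy, was the lowest of the 41 genes in its FAC effect. It had 44.3, 51.8 and 28.3 CPM in oleic acid + FAC, 51.2, 63.3 and 44.6 CPM in FAC alone, 57.7, 61.9 and 47.7 CPM in oleic acid, and 51.6, 70.6 and 59.3 CPM in vehicle. The groups overlapped and replicate 3 of oleic acid + FAC was far below the rest of its group (log2 FAC effect -0.31 ± 0.15, SE, edgeR adjusted p = 0.222). WIPI1, which reads phosphoinositides on the forming membrane, was scarce at a mean of 4.38 TPM, with 5.06, 4.20 and 4.90 CPM in oleic acid + FAC, 5.01, 3.79 and 3.94 CPM in FAC alone, 3.45, 3.92 and 5.23 CPM in oleic acid, and 4.20, 3.65 and 2.86 CPM in vehicle. Its averaged FAC effect was 0.21 ± 0.16 (log2, SE, edgeR adjusted p = 0.464). ATG5 and ATG7, which conjugate LC3 proteins to lipid, ATG9A, a lipid scramblase, and BECN1, the Beclin 1 subunit, had log2 FAC effects from -0.06 to 0.02, with adjusted p from 0.689 to 0.932.

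**Figure D4:**
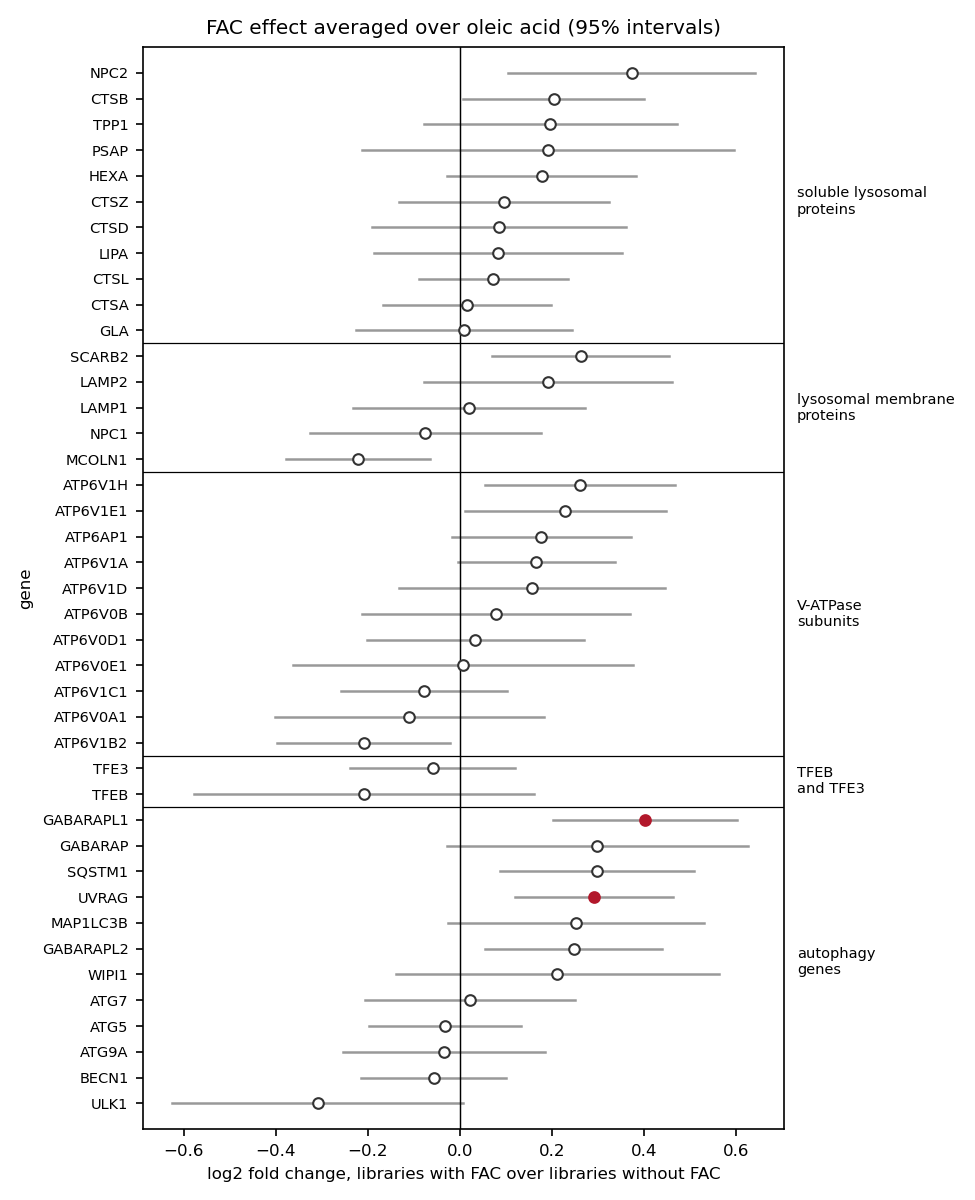
Log2 fold change of each of the 41 genes, libraries with FAC over libraries without (horizontal axis), with 95% intervals as grey lines, by list and sorted within it. Filled red points mark GABARAPL1 and UVRAG, the genes with an edgeR adjusted p under 0.05, and the other 39 points are open.

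In edgeR with a mean per group, the simple comparisons gave no calls among the members. For FAC against vehicle, 0 of 41 passed in edgeR while 1.19% of all genes did, 2 members had an unadjusted p under 0.05 against 12.1% of all genes, and DESeq2 called 1 and limma-voom 0. For oleic acid + FAC against oleic acid, 0 of 41 passed against 2.21% of all genes, 7 had an unadjusted p under 0.05 against 16.1%, and DESeq2 called 2 and limma-voom 0. Here same-numbered libraries deviated together (r from 0.30 to 0.61 over 3 pairs). With the replicate number as a block 0 of 41 passed against 5.21% of all genes. The comparisons share no library. Side by side, the FAC effect on GABARAPL1 was 0.35 ± 0.13 with oleic acid and 0.45 ± 0.13 without it. That on UVRAG was 0.34 ± 0.11 with it and 0.24 ± 0.11 without it, and that on MCOLN1 was -0.18 ± 0.10 with it and -0.26 ± 0.10 without it (log2, SE). DESeq2 named GABARAPL1 without oleic acid, and NPC2 and UVRAG with it.

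For oleic acid + FAC against vehicle, which carries both treatments, 0 of 41 passed against 3.07% of all genes in edgeR, and 13 had an unadjusted p under 0.05 (10 higher, 3 lower) against 22.3% of all genes. DESeq2 called 4 (GABARAPL1, GABARAPL2, NPC2 and UVRAG) and limma-voom 0. In the averaged FAC comparison 11 members had an unadjusted p under 0.05 against 23.5% of all genes, 9 of them higher with FAC.

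Oleic acid left the list without a call. With its effect averaged over FAC, 0 of 41 members and 0% of all genes passed in edgeR, 1 member had an unadjusted p under 0.05 (GLA, alpha-galactosidase A, log2 fold change 0.24), chosen after its value was seen, against 4.34% of all genes, and DESeq2 and limma-voom called 0 members. For oleic acid against vehicle, oleic acid + FAC against FAC and the interaction, edgeR called 0 members and 0% of all genes. In these comparisons 0, 1 and 0 members had an unadjusted p under 0.05, against 0.83%, 4.05% and 0.816% of all genes, and DESeq2 and limma-voom called 0 members in each. The 1 was NPC2, with a log2 fold change of 0.49 ± 0.17 (SE, edgeR adjusted p = 0.707) in oleic acid + FAC against FAC. The averaged oleic acid effects of the 41 genes ran from -0.23 to 0.30.

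Annotated transcripts showed which isoforms carry the counts. Of 51464 transcripts tested, 184 belonged to the 41 genes. In the averaged FAC comparison 8 of the 184 had an unadjusted p under 0.05, against 8.37% of all transcripts, and 1 passed, against 0.299% of all transcripts: UVRAG-201 (ENST00000356136, 4123 bases), with a log2 fold change of 0.99 ± 0.13 (SE, edgeR adjusted p = 0.0177). It had 19.9, 19.7 and 21.4 CPM in oleic acid + FAC, 18.8, 14.3 and 18.6 CPM in FAC alone, 10.9, 8.98 and 9.002 CPM in oleic acid, and 8.88, 8.68 and 10.2 CPM in vehicle. All 6 libraries with FAC lay above all 6 without. In edgeR, 0 of the 184 passed for FAC against vehicle (0.00777% of all transcripts), for oleic acid + FAC against oleic acid (0.0117%), for oleic acid against vehicle (0%) and for oleic acid + FAC against FAC (0.00194%). In the same order, 9, 13, 4 and 11 of the 184 had an unadjusted p under 0.05, against 4.47%, 6.14%, 2.11% and 3.97% of all transcripts, and limma-voom called 0 in each. DESeq2, run without the filter, called 3, 3, 3 and 1 of 425 member transcripts, against 0.783%, 1.023%, 0.182% and 0.394% of all transcripts to which it gave an adjusted p.

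UVRAG-201 made up 58.1% to 77.1% of the UVRAG counts in libraries with FAC and 41.6% to 46.4% in those without, with no overlap. It was picked by its adjusted p on the same counts, so the separation of its level and share adds nothing to the call. The other main transcripts, UVRAG-205 and UVRAG-207, were listed at 0% to 22.8% and 13.4% to 27.2% with FAC, against 4.45% to 28.97% and 25.6% to 53.8% without. Their ranges overlapped. The call on UVRAG-201 held in 3 of the 12 fits that left out 1 library, those without the second FAC, the third oleic acid or the third oleic acid + FAC library. In the other 9 the adjusted p ran from 0.0515 to 0.0909, and the log2 fold change over all 12 from 0.95 to 1.05. The split of reads between overlapping transcripts is an estimate, and its error is not in the deposited values used here.

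For LAMP2, the 3 protein-coding transcripts differ in the tail that faces the cytoplasm. LAMP2-202, which encodes LAMP2B, took 78.0% to 87.3% of the LAMP2 counts over the 12 libraries. LAMP2-201, which encodes LAMP2A, the receptor of chaperone-mediated autophagy, took 9.23% to 15.7%, and LAMP2-203, which encodes LAMP2C, 1.76% to 6.24%. The ranges with FAC and without it overlapped for all 3.

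**Figure D5:**
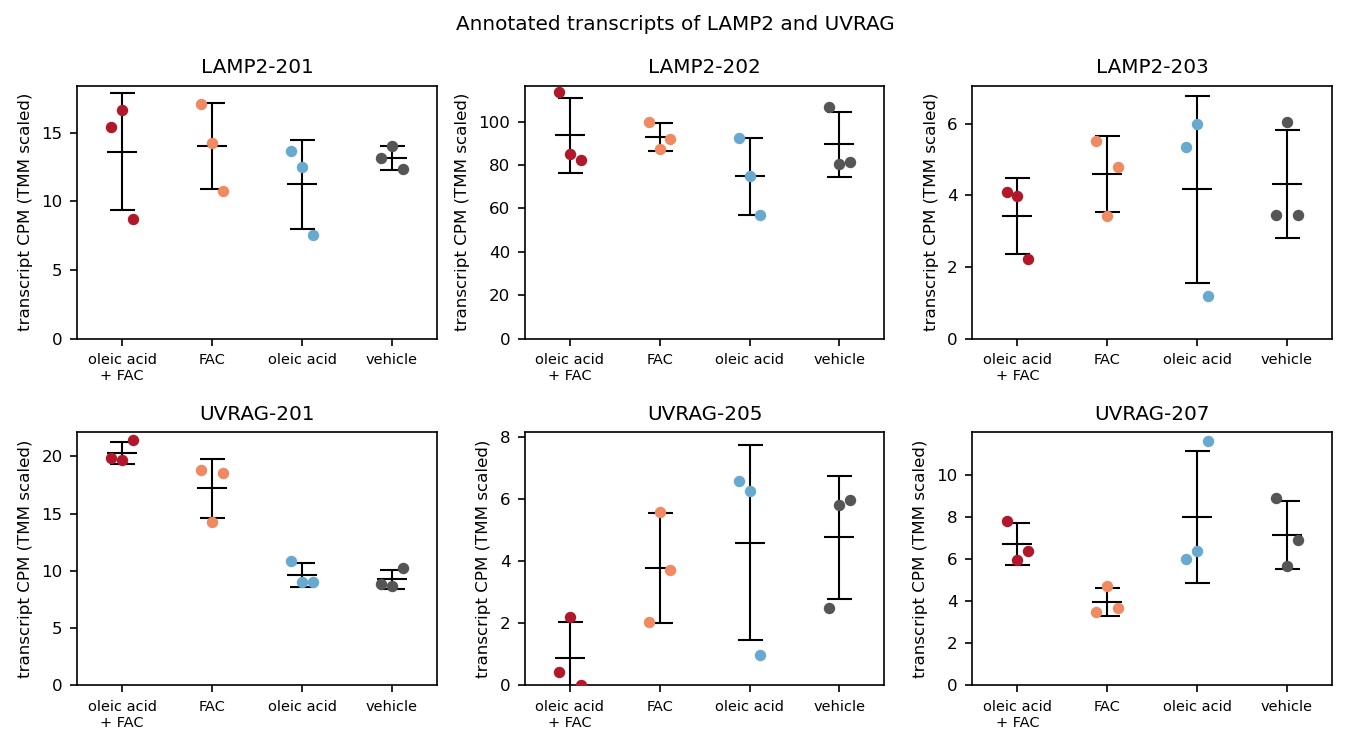
Levels of 3 LAMP2 and 3 UVRAG transcripts in CPM (vertical axes start at 0) in oleic acid + FAC, FAC, oleic acid and vehicle; points are libraries, bars the mean ± SD of 3. UVRAG-201 lies between 14.3 and 21.4 CPM in libraries with FAC and at most at 10.9 CPM in the others, while the LAMP2 transcripts overlap across groups.

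Wider lists of the same pathways put the 41 genes in context. With FAC averaged over oleic acid, 8 of 50 other lysosomal proteins passed (3 up, 5 down), 7 of 48 other autophagy genes (2 up, 5 down), 2 of 17 other pump subunits and assembly factors (1 up, 1 down), 0 of 32 genes that control mTORC1 and TFEB and 0 of 3 genes of ferritin and its receptor. With 8 genes of sterol transport added, 18 of 158 tested passed (11.4%), against 8.76% of all genes, and 11 of the 18 were lower with FAC. In edgeR, 9 of the 32 and 1 of the 3 had an unadjusted p under 0.05. DESeq2 called 4 mTORC1 and TFEB control genes and limma-voom 1, and both called 0 of the ferritin list. Of the 32 control genes, 7 passed with the replicate block, 6 with the length trend removed and 13 with both. Of the 3 ferritin genes 0, 1 and 2 passed in these fits. The shares of all genes there were 15.6%, 15.9% and 26.2%. The count of 18 was 29 in DESeq2 (12.5% of all genes) and 29 with replicate 3 of both oleic acid groups left out (14.9%). It was 32 with the replicate block (15.6%), 34 with the length trend removed (15.9%) and 58 with both (26.2%). In the last of these 31 were higher and 27 lower with FAC, so the balance of directions turned. With 1 library left out the count was 9 without the second vehicle or the third FAC library (5.11% and 5.29% of all genes). It was 10 without the first oleic acid, the first FAC or the third vehicle library (5.30% to 5.90%). It was 11 without the second oleic acid library (6.07%) and 28 without the third oleic acid library (12.5%).

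Among the 8 other lysosomal proteins that passed, CTNS, SLC38A9 and TPCN2, carriers or channels of the lysosomal membrane, were lower with FAC. Naming by the largest change left out the 3 that were higher. With the block and removal of the length trend together, 12 of this list passed as higher and 8 as lower, while 26.2% of all genes passed. CTNS, which exports cystine from the lysosome, had 15.6, 16.7 and 14.3 CPM in oleic acid + FAC, 18.5, 15.8 and 16.1 CPM in FAC alone, 27.2, 21.4 and 27.9 CPM in oleic acid, and 25.2, 25.0 and 25.0 CPM in vehicle, and fell by 0.64 on the log2 scale (SE 0.09, edgeR adjusted p = 0.0011). SLC38A9, the arginine sensor that signals to mTORC1, had 25.7, 22.0 and 20.5 CPM in oleic acid + FAC, 23.0, 22.3 and 24.0 CPM in FAC alone, 34.2, 30.4 and 28.6 CPM in oleic acid, and 35.4, 33.5 and 32.9 CPM in vehicle, a change of -0.50 ± 0.08 (adjusted p = 0.0025). For both genes the libraries with and without FAC did not overlap.

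TPCN2, a cation channel, changed by -0.65 ± 0.15 and SGSH, a heparan sulfate sulfatase, by -0.56 ± 0.12 (log2, SE, edgeR adjusted p = 0.0158 and 0.0108). Among autophagy genes outside the list, the lipid transfer proteins ATG2A and ATG2B changed by -0.48 ± 0.12 and -0.54 ± 0.13, and ATG4B, the protease that primes LC3 and GABARAP proteins for conjugation, by -0.46 ± 0.08 (adjusted p = 0.0285, 0.0230 and 0.0038). BCL2, which binds and restrains Beclin 1, rose by 0.42 ± 0.10 (adjusted p = 0.0165). In the pump, the V0 subunit ATP6V0A2 changed by -0.47 ± 0.10 and the accessory receptor ATP6AP2 by 0.31 ± 0.08 (adjusted p = 0.0148 and 0.0308). ATG4B fell to 28.6 to 36.0 CPM in the 6 libraries with FAC, against 42.7 to 50.7 CPM in the 6 without. With 1 library left out in turn, CTNS, SLC38A9, SGSH, ATG4B and ATP6V0A2 passed in 12 of 12 fits. TPCN2 missed without the second vehicle library (adjusted p = 0.0505) and BCL2 without the third FAC library (adjusted p = 0.0513). ATG2A, ATG2B and ATP6AP2 passed in 5 of 12 fits each. All 3 missed without the first oleic acid, the first FAC, the second vehicle, the third vehicle or the third FAC library. ATG2A also missed without the first vehicle library, ATG2A and ATG2B without the second oleic acid + FAC library, ATG2B and ATP6AP2 without the second oleic acid library, and ATP6AP2 without the first oleic acid + FAC library. Their adjusted p in the fits that missed ran from 0.0503 to 0.0817 for ATG2A, 0.0502 to 0.0679 for ATG2B and 0.0539 to 0.0928 for ATP6AP2.

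The ferritin genes and their autophagy receptor did not pass in the fit with a mean per group. NCOA4 had 231 to 261 CPM with FAC and 199 to 246 CPM without, FTH1, the heavy chain, 385 to 668 CPM and 353 to 515 CPM, and FTL, the light chain, 339 to 801 CPM and 309 to 589 CPM, all overlapping. Their log2 FAC effects were 0.13 ± 0.07, 0.30 ± 0.12 and 0.38 ± 0.18 (SE), with edgeR adjusted p of 0.314, 0.156 and 0.229. FTH1 passed with the length trend removed (adjusted p = 0.0373), and FTH1 and FTL passed with the trend removed and the block together (0.0152 and 0.0025). Both chains have many processed pseudogenes that can share their reads. ATP6V0C, the proton-carrying ring subunit, had 133 to 263 CPM with FAC and 116 to 211 CPM without (0.21 ± 0.17, adjusted p = 0.491).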

How the data were processed

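RNA of 12 HEK293 libraries, 3 for each of oleic acid + FAC, FAC, oleic acid and vehicle, was poly-A selected and prepared with TruSeq chemistry, per the labels' protocols, which do not state whether counting used strand. The authors deposited estimated counts from kallisto, per the labels, in 1 table of genes and 1 of transcripts. The submitters' processing notes name kallisto 0.46.1, bcl2fastq 2.19, sleuth 0.30.0 and build GRCh38.p12; the release of the transcript index is not given in the sources used here. All values were whole numbers, and no symbol was blank. Summed transcript counts met the gene count within 5 counts for 40 of 41 members, and MAP1LC3B differed by up to 21.

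Libraries were scaled by TMM, genes kept by filterByExpr, and all 12 libraries fitted in 1 edgeR 4.0.16 quasi-likelihood model with a mean per group (R 4.3.3). In all, 8 contrasts were tested two-sided, the FAC average being the mean of FAC against vehicle and oleic acid + FAC against oleic acid. Library totals from 14098216 to 18717397 put the limit of a 0 count (3 counts) at 0.160 to 0.213 CPM, counting error only. Coordinates and lengths came from GENCODE 29, whose transcript IDs covered 97.5% of counts. The steps were tested on simulated data. Same-numbered libraries deviated together in oleic acid + FAC and oleic acid (r from 0.30 to 0.61 over 3 pairs) and in oleic acid + FAC and FAC (0.22 to 0.34). They also did so in FAC and oleic acid (0.17 to 0.33). All were over 0.1, the rule used here to call numbers paired. Differently numbered libraries ran from -0.53 to 0.26, so this rule does not settle the pairing. The 0.61 was between replicate 3 of oleic acid + FAC and of oleic acid, which shared the length profile. Same-numbered pairs with vehicle did not all pass 0.1. DESeq2 1.42.0, limma 3.58.1 (voom), RLE scaling, no filter, a replicate block, removal of a length trend, fits of 2 groups and left-out libraries were alternatives.

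The members and lists were chosen with earlier results of these data known. Per-library values are given for members past the test, for the 2 in each list with the smallest p for the averaged FAC effect and for a fixed set of 18. Genes named from each wider list are up to 4 past the test with the largest change plus NCOA4, FTH1, FTL and ATP6V0C, given per library, as ranges or as fold changes alone. Other members named together are given by range. A gene of a wider list that this rule names is not reported here.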

Additional observations from a re-analysis of the deposited data

How the results depend on the processing

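The count of members past the test moved with the processing, and the share of all genes past it moved too. In the averaged FAC comparison 2 of 41 members passed (8.76% of all genes). The count was 5 with DESeq2 (12.5% of all genes), 1 with no filter (4.77%), 7 with replicate 3 of oleic acid + FAC and of oleic acid both left out (14.9%), 10 with the replicate block (15.6%), 7 with a transcript length trend removed (15.9%) and 15 with that and the block together (26.2%). Leaving out 1 library gave 0 to 6 (5.11% to 12.5% of all genes). The 6 came without the third oleic acid library (12.5%), and 0 without the first oleic acid, the second vehicle or the third FAC library (5.11% to 5.81%). RLE scaling and limma-voom gave 2 (8.71% and 8.89%).

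For FAC against vehicle, 0 members became 1 with DESeq2 (3.65% of all genes), with the same 2 libraries left out (4.67%), with the replicate block (3.03%), with the length trend removed (3.16%) and in a fit of the 2 groups alone (2.54%), and 2 with trend and block together (7.34%). Leaving out 1 library gave 0 to 1 (0.187% to 2.07%). For oleic acid + FAC against oleic acid, 0 became 2 with DESeq2 (5.97%) and 1 without the same 2 libraries (2.47%). It became 2 with the length trend removed (5.61%), 11 with trend and block together (13.7%), and 0 to 2 with 1 library left out (0.381% to 3.10%). For oleic acid + FAC against vehicle, 0 became 4 with DESeq2 (9.61%) and 6 with the replicate block (10.8%). It became 2 with the length trend removed (7.52%), 11 with trend and block together (17.4%), and 0 to 2 with 1 library left out (0.430% to 7.09%). The cause was not tested. The numbers met the rule for pairs in oleic acid + FAC against oleic acid and in oleic acid + FAC against FAC, where the block alone changed no member call. Over all 4 groups they did not: of 18 same-numbered pairs, 13 had deviations correlated over 0.1 (range -0.07 to 0.61), and 10 of 12 libraries correlated best with their own number, a hint from the data only.

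GABARAPL1 passed in 17 of 20 alternatives, UVRAG in 9, SQSTM1 in 6, SCARB2 and ATP6V1H in 5 each and NPC2 in 4. ULK1, lower with FAC, passed in 3. Near-zero FAC effects changed sign with 1 library left out: LAMP1 ran from -0.053 to 0.095, ATP6V0D1 from -0.023 to 0.112 and LIPA from -0.013 to 0.145. The median FAC effect of the autophagy genes ran from 0.15 to 0.28 over 20 alternatives and that of the soluble proteins from 0.06 to 0.18, while that of the membrane proteins ran from -0.05 to 0.09.

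For transcripts, the 1 of 184 called in the averaged FAC comparison (0.299% of all transcripts) became 4 of 425 with DESeq2. There 1.88% of all transcripts with an adjusted p passed. It became 0 of 425 with no filter (0.0309%), and 0 to 1 with 1 library left out (0.0372% to 0.246%). DESeq2 called 3 member transcripts in FAC against vehicle, 3 in oleic acid + FAC against oleic acid, 3 in oleic acid against vehicle and 1 in oleic acid + FAC against FAC, where edgeR called 0. Searching only the bases before the start left the count of promoters with each motif the same in the members. A count of 0 allows up to 0.213 CPM, and the lowest value of any member in any library was 2.79 CPM, for TFEB.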
